A study of Mus musculus and Homo sapiens with 107 samples.

Results

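The 10 genes of the MYC, MAX and MXD network were followed in RNA-seq libraries of 2 human lung cancer cell lines given the SWI/SNF inhibitor BRM014. They were taken by Ensembl identifier from the raw gene count tables, and all 10 had a row in both tables, among 24353 rows for A549, 24019 for H1299 and 22842 identifiers present in both. The tables hold identifiers alone, and the symbols are those the gene set was defined with: MYC (ENSG00000136997), MYCL (ENSG00000116990), MYCN (ENSG00000134323), MAX (ENSG00000125952), MXD1 (ENSG00000059728), MXD4 (ENSG00000123933), MXI1 (ENSG00000119950), MNT (ENSG00000070444), MLX (ENSG00000108788) and MGA (ENSG00000174197). A549 and H1299 are established lines of non-small-cell lung cancer, with the genotype given as wt in the labels, and both are known to lack functional BRG1 (SMARCA4), so that BRM (SMARCA2) is the SWI/SNF ATPase they retain. Each line had 3 libraries of cells treated with BRM014 at 5 µM for 12 h and 3 of cells given only DMSO, the solvent, for the same time. DMSO is given as 0.05% in the sample titles and the treatment protocol and as 0.5% in the treatment field, and the counts do not settle which holds. BRM014 is an allosteric inhibitor of the BRM and BRG1 ATPases, and the comparison asks how transcripts respond when SWI/SNF remodelling is blocked.

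The network is built from basic helix-loop-helix leucine zipper proteins that pair with MAX and bind E-box sequences in promoters. MYC and its relatives MYCL and MYCN activate growth genes as MAX heterodimers, and MYC is an oncogene often raised in lung cancer. MXD1, MXD4 and MXI1 compete with MYC for MAX and recruit SIN3 and histone deacetylases, MNT does so more broadly across tissues, and MGA binds MAX as part of a Polycomb complex. MLX is a MAX-like protein that pairs with MLXIP and MLXIPL to drive glucose-responsive genes and also pairs with MXD1, MXD4 and MNT.

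Library totals were 40684360 to 50177678 counts in A549 and 28412113 to 41780029 in H1299. Of the 3 BRM014 columns for A549, 2 carry the same header, so these libraries have no replicate number and are called a and b here. Whether replicates are separate cultures is not stated in the labels, and the p-values reflect library-to-library spread alone, possibly technical. Line, growth medium and PCR cycles (9 for A549, 8 for H1299) cannot be told apart. Levels are counts per 1000000 (CPM) scaled by the trimmed mean of M values (TMM) over all 12 libraries and given as mean ± SD of 3 libraries. They compare a gene between libraries and not one gene with another, since they are not per length. Fold changes come from edgeR's quasi-likelihood test within each line, where a gene "rose" or "fell" if its Benjamini-Hochberg adjusted p over all genes tested was below 0.05. A change is a change in a transcript's share of its library, and in such bulk data fewer cells of a type and less RNA per cell cannot be told apart.

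MXD1 had the largest response of the network in both lines: it fell by 41.3% in A549 and by 37.7% in H1299. MYC and MAX fell by less, 12.6% and 11.0% in A549 and 8.29% and 14.3% in H1299. MLX fell in A549, by 11.8%, and MXD4 rose in H1299, by 12.5%. MYCN was too low to test, and MYCL, MXI1, MNT and MGA passed the threshold in neither line. In A549 this made 4 falls and 0 rises among the 9 members tested, where 37% of all 15188 genes tested changed, 19.4% falling and 17.7% rising. In H1299 it made 3 falls and 1 rise among 9, where 22% of 14986 genes changed, 12.7% fell and 9.29% rose. Scaling moved this division: when libraries were scaled by their totals and not by TMM, 3 members fell and 3 rose in A549 (MYC, MXD1 and MLX against MYCL, MXI1 and MNT), and 3 fell and 2 rose in H1299. With library totals, 6263 of the 15188 genes tested in A549 and 3640 of the 14986 in H1299 changed. The median log2 fold change of all genes was then 0.067 in A549 and 0.035 in H1299. With TMM, the median log2 fold change of the members tested was -0.01 in A549 (0.02 for all genes) and -0.0014 in H1299 (0.0029 for all genes).

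**Figure D1:**
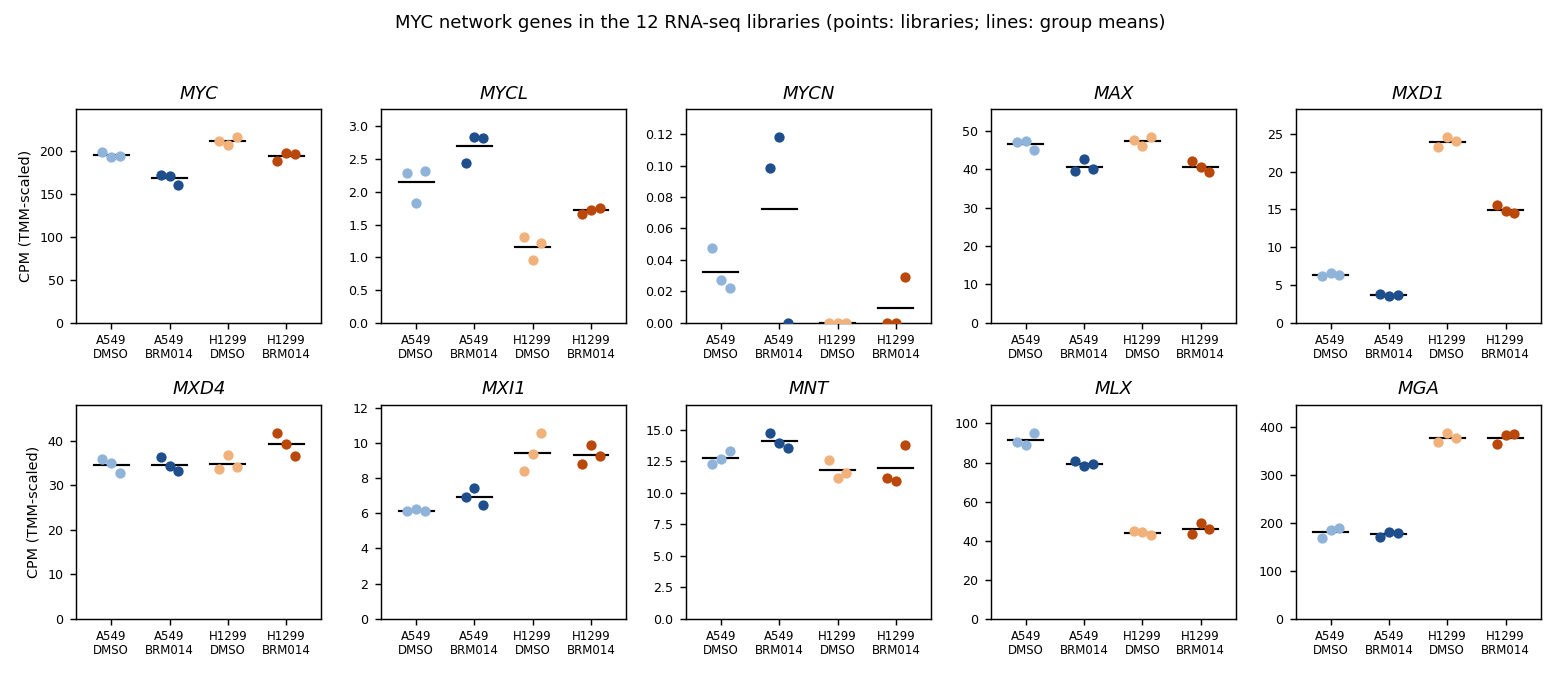
CPM (vertical axis, from 0, with its own scale for each gene) of the 10 genes in the 12 libraries, by line and treatment; points are libraries and lines are group means. MXD1 lay at 3.54 to 3.77 CPM in A549 and 14.5 to 15.5 CPM in H1299 with BRM014, below every DMSO library of the same line.

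MYC, the founding activator of the family, stood at 199, 194 and 194 CPM in A549 DMSO replicates 1, 2 and 3. The A549 BRM014 libraries a, b and 3 had 173, 172 and 161 CPM. All 3 treated libraries lay below all 3 controls, and the log2 fold change was -0.19 (standard error 0.04, 95% interval -0.28 to -0.11, adjusted p = 0.00234 in edgeR). In H1299 the controls had 212, 208 and 217 CPM and the treated libraries 189, 199 and 197. These groups did not overlap either, and the fall was smaller, at a log2 fold change of -0.12 (standard error 0.03, 95% interval -0.19 to -0.06, adjusted p = 0.00232). Such separation was common: groups did not overlap for 48.2% of all genes tested in A549 and for 35.2% in H1299. MYC was counted 6345 to 8957 times per library. Ordered by mean, MYC was highest in H1299 with DMSO (212 ± 4.52 CPM). A549 with DMSO (196 ± 3.03) and H1299 with BRM014 (195 ± 5.13) came next with overlapping libraries, and A549 with BRM014 (169 ± 6.70) was lowest and apart from the rest. The overlap depends on scaling: by library totals H1299 with BRM014 had 207 to 214 CPM and A549 with DMSO 176 to 182 CPM.

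MYCL, the family member first described in small-cell lung cancer, was far less often counted, with 32 to 120 counts per library. Its A549 libraries held 2.29, 1.83 and 2.32 CPM with DMSO and 2.44, 2.83 and 2.83 CPM with BRM014. In H1299 the values were 1.30, 0.953 and 1.23 CPM with DMSO and 1.67, 1.72 and 1.76 CPM with BRM014. The treated libraries were the higher ones in both lines, without overlap, but the test was not passed. The log2 fold change was 0.34 (95% interval 0.05 to 0.64, adjusted p = 0.0677) in A549 and 0.56 (95% interval 0.13 to 0.98, adjusted p = 0.0569) in H1299 in edgeR. With library totals in place of TMM both passed (adjusted p = 0.0352 and 0.0394), and in H1299 it also passed in the joined fit of 12 libraries (adjusted p = 0.0369). On the TMM scale every A549 library, at 1.83 CPM or more, lay above every H1299 library, at 1.76 CPM or less. By library totals the lines overlapped: A549 DMSO replicate 2 was at 1.66 CPM and the H1299 BRM014 libraries at 1.83 to 1.91 CPM.

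MYCN, the relative known from neuroblastoma and neuroendocrine lung tumours, was close to undetected. It had 2, 1 and 1 counts in the A549 DMSO libraries and 4, 5 and 0 in A549 BRM014 libraries a, b and 3. H1299 had 0 counts over its 3 DMSO libraries, which allows a level of up to 0.0283 CPM (3 counts over the group, counting error only), and 1 count over its BRM014 libraries. MYCN was tested in no comparison at these counts, so no statement on a difference between treatments or lines is made. MYCN has a known antisense transcript, MYCNOS, and the strand setting of the counting is not given in the sources used here, so even these counts may belong to either strand.

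MAX, the partner shared by the MYC and MXD proteins, fell in both lines. A549 had 47.0, 47.4 and 44.9 CPM with DMSO and 39.5, 42.6 and 39.9 CPM with BRM014. H1299 had 47.6, 45.9 and 48.3 CPM with DMSO and 42.0, 40.5 and 39.2 CPM with BRM014. Treated and control libraries did not overlap in either line. The log2 fold change was -0.17 (standard error 0.05, 95% interval -0.28 to -0.06, adjusted p = 0.0219 in edgeR) in A549 and -0.22 (standard error 0.04, 95% interval -0.31 to -0.13, adjusted p = 0.000208) in H1299. The A549 call was fragile. It was lost with library totals (adjusted p = 0.0834), without A549 DMSO replicate 1 (0.0531) or 2 (0.0903), without A549 BRM014 replicate 3 (0.054) and without both unnumbered libraries (0.0577), while the fold change stayed between -0.22 and -0.12. MAX levels in A549 and H1299 were 46.4 ± 1.32 CPM and 47.3 ± 1.22 CPM with DMSO and 40.7 ± 1.67 CPM and 40.6 ± 1.43 CPM with BRM014.

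**Figure D2:**
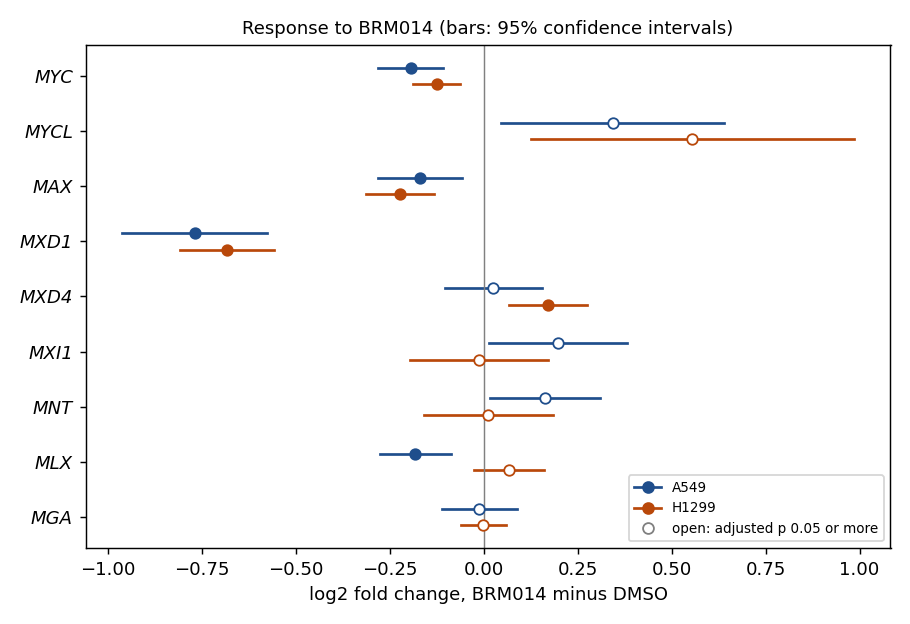
Log2 fold change of BRM014 against DMSO (horizontal axis) for the 9 members tested, in A549 and H1299; bars are 95% confidence intervals, filled points have an adjusted p below 0.05. MXD1 lay at -0.77 in A549 and -0.68 in H1299, and the intervals of MYC and MAX lay below 0 in both lines.

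MXD1, also called MAD1, is the MYC antagonist that rises as many cell types stop dividing and differentiate. In A549 it stood at 6.18, 6.56 and 6.37 CPM with DMSO and at 3.77, 3.54 and 3.72 CPM with BRM014, a gap several times the spread within either group. H1299 libraries held 23.3, 24.6 and 24.1 CPM with DMSO and 15.5, 14.8 and 14.5 CPM with BRM014, again with a clear gap. The log2 fold change was -0.77 (standard error 0.09, 95% interval -0.96 to -0.58, adjusted p = 2.86e-05 in edgeR) in A549 and -0.68 (standard error 0.06, 95% interval -0.81 to -0.56, adjusted p = 4.35e-11) in H1299. In A549 10.2% of the genes tested, and in H1299 4.7%, had a larger absolute change. The falls rest on 150 to 288 counts per library in A549 and 504 to 983 in H1299.

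MXD4, another antagonist of the same family, did not follow MXD1. A549 had 35.9, 35.1 and 32.8 CPM with DMSO and 36.3, 34.3 and 33.3 CPM with BRM014, with the groups interleaved (log2 fold change 0.03, 95% interval -0.10 to 0.16, adjusted p = 0.767 in edgeR). In H1299 the controls had 33.7, 36.8 and 34.1 CPM and the treated libraries 41.8, 39.4 and 36.7 CPM. The lowest treated library lay just under the highest control, and the rise amounted to 0.17 on the log2 scale (standard error 0.05, 95% interval 0.07 to 0.27, adjusted p = 0.0134). This call was lost without H1299 DMSO replicate 1 (adjusted p = 0.103), DMSO replicate 3 (0.0599) or BRM014 replicate 1 (0.101).

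MXI1, the antagonist once called MXD2, had 6.11 to 6.23 CPM in the A549 controls (median 6.11) and 6.45 to 7.44 CPM (median 6.92) with BRM014. The treated libraries were higher without overlap, and the test was not passed (log2 fold change 0.20, 95% interval 0.01 to 0.38, adjusted p = 0.0861 in edgeR). H1299 had 8.41 to 10.6 CPM with DMSO and 8.78 to 9.86 CPM with BRM014, so the treated libraries fell inside the range of the controls (log2 fold change -0.01, 95% interval -0.20 to 0.17, adjusted p = 0.95).

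MNT, the most widely expressed of the antagonists, gave a like picture. In A549 it had 12.3 to 13.3 CPM with DMSO and 13.6 to 14.8 CPM with BRM014, apart but not past the threshold (log2 fold change 0.16, 95% interval 0.02 to 0.31, adjusted p = 0.0773 in edgeR). In H1299 the ranges were 11.2 to 12.6 CPM and 11.0 to 13.8 CPM, and they overlapped (log2 fold change 0.01, 95% interval -0.16 to 0.18, adjusted p = 0.947). With library totals in place of TMM, both MXI1 (adjusted p = 0.0354) and MNT (0.0261) passed as rises in A549.

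MGA, a very large protein that joins MAX to the Polycomb complex PRC1.6, is lost by mutation in some lung adenocarcinomas. Its A549 libraries held 169, 184 and 189 CPM with DMSO and 169, 182 and 179 CPM with BRM014. In H1299 they held 369, 387 and 377 CPM with DMSO and 364, 383 and 385 CPM with BRM014. The groups overlapped in both lines, and the intervals were narrow: -0.11 to 0.09 on the log2 scale in A549 (adjusted p = 0.871 in edgeR) and -0.06 to 0.06 in H1299 (adjusted p = 0.983). These rest on 6751 to 17152 counts per library.

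MLX, the centre of the parallel glucose-sensing branch, responded differently in the lines. A549 controls had 90.5, 89.0 and 95.1 CPM, and A549 BRM014 libraries 81.0, 78.1 and 79.4 CPM. The groups were apart, at a log2 fold change of -0.18 (standard error 0.04, 95% interval -0.28 to -0.09, adjusted p = 0.00633 in edgeR). H1299 had 44.8, 44.5 and 42.7 CPM with DMSO and 43.3, 49.2 and 45.9 CPM with BRM014. These overlapped (log2 fold change 0.07, 95% interval -0.03 to 0.16, adjusted p = 0.332). Tested directly, the response was higher in H1299 than in A549 by 0.27 on the log2 scale, with a standard error of 0.07 (95% interval 0.13 to 0.41, adjusted p = 0.0053). MLX was the 1 member of 9 past the threshold in this test, which 19.5% of all 16466 genes passed (10.2% with the higher and 9.25% with the lower response in H1299).

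For the other 8 members tested, a difference in response between the lines was not shown. The estimates, as H1299 minus A549 on the log2 scale, ran from -0.19 for MXI1 (95% interval -0.45 to 0.08) to 0.23 for MYCL (95% interval -0.24 to 0.71). Single libraries moved these estimates both ways. MXI1 was at -0.11 without H1299 DMSO replicate 3, and MYCL was at 0.11 without H1299 DMSO replicate 2. Without H1299 DMSO replicate 1 they were at -0.27 and 0.34. For MXD1 the difference was 0.11 (95% interval -0.11 to 0.33, adjusted p = 0.532 in edgeR), and for MYC it was 0.09 (95% interval -0.02 to 0.20, adjusted p = 0.256), or 0.05 without A549 BRM014 replicate 3 and 0.16 without both unnumbered libraries. MYC, MAX and MXD1 passed the threshold as falls in both lines, 3 of 9 members, where 6.26% of the 13675 genes tested in both lines did. None passed in opposite directions, as 2.3% of those genes did.

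Without the inhibitor the lines differed for 6 of the 9 members tested, 4 higher and 2 lower in H1299, where 85.7% of all genes tested did (42.9% higher and 42.8% lower). The DMSO libraries of the lines did not overlap for 6 members, as for 86.6% of all genes. MXD1 was the member with the widest gap, at 24.0 ± 0.651 CPM in H1299 against 6.37 ± 0.187 CPM in A549 (3.76-fold, log2 difference 1.91, standard error 0.07, adjusted p = 1.91e-18 in edgeR). MGA was 2.09-fold higher in H1299 (log2 difference 1.06, standard error 0.04, adjusted p = 1.37e-17), and MLX was 2.08-fold higher in A549 (log2 difference -1.06, standard error 0.05, adjusted p = 2.67e-16). MXI1 was 1.53-fold higher in H1299 (adjusted p = 1.5e-06) and MYCL 1.85-fold higher in A549 (adjusted p = 4.18e-05). MYC was 1.08-fold higher in H1299, or 0.12 on the log2 scale (standard error 0.04, adjusted p = 0.0072). The size of all these differences depends on scaling. With library totals the log2 differences were 0.34 for MYC, 2.14 for MXD1, 1.29 for MGA and 0.84 for MXI1. For MLX and MYCL they were -0.83 and -0.66, while the median over all genes went from 0.02 to 0.24. Without A549 DMSO replicate 3 the MYC difference was 0.09 and did not pass (adjusted p = 0.0705). MAX, MXD4 and MNT did not pass, with 95% intervals of -0.07 to 0.13, -0.11 to 0.13 and -0.28 to 0.06, but with library totals MAX and MXD4 were called higher in H1299, by 0.25 and 0.24.

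**Figure D3:**
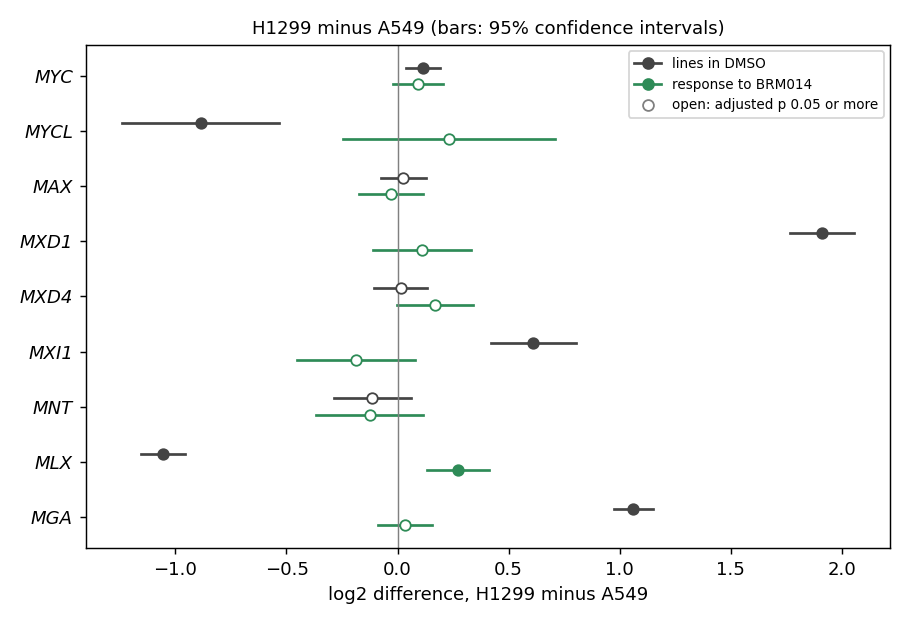
Log2 difference, H1299 minus A549 (horizontal axis), for the 9 members tested: grey, level in DMSO; green, response to BRM014; bars are 95% confidence intervals and filled points have an adjusted p below 0.05. MXD1 and MGA lay at 1.91 and 1.06 in DMSO, MLX at -1.06, and for the response only MLX, at 0.27, was past the threshold.

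For MXD1, MGA and MLX the order of the lines was the same with BRM014 as with DMSO. MXD1 was 4.06 times as high in H1299 as in A549 with BRM014, against 3.76 times with DMSO, so the lowest H1299 library, treated or not (14.5 CPM), stayed above the highest A549 library (6.56 CPM). MGA was 2.14 times as high in H1299 with BRM014. The MLX gap, A549 over H1299, went from 2.08 with DMSO to 1.72 with BRM014.

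Ratios of counts within a library do not depend on how libraries are scaled, and MAX, as the shared partner, gives a common denominator. The MYC to MAX count ratio was 4.22 ± 0.120 with DMSO and 4.15 ± 0.199 with BRM014 in A549, and 4.49 ± 0.0321 and 4.81 ± 0.277 in H1299. Both pairs of groups overlapped. The MXD1 to MAX ratio went from 0.137 ± 0.00527 to 0.0906 ± 0.00654 in A549 and from 0.508 ± 0.0240 to 0.369 ± 0.00321 in H1299, without overlap in either line. MXD1 was thus lower in treated libraries relative to MAX as well as in CPM. The ratios of MXD4, MNT, MGA and MYCL to MAX were higher in all 3 treated libraries than in all 3 controls in both lines. For MXD4 they went from 0.744 ± 0.0168 to 0.853 ± 0.0595 in A549 and from 0.739 ± 0.0544 to 0.968 ± 0.0289 in H1299, and for MGA from 3.90 ± 0.311 to 4.35 ± 0.126 and from 7.99 ± 0.373 to 9.32 ± 0.597. Since MAX itself fell, a ratio that goes up shows unequal change and not that the numerator rose. With 3 libraries against 3 the smallest p of an exact two-sided permutation test is 0.1, so these ratios are given as a description. The share of all genes whose ratio to MAX separates in this way was not counted. Separation is therefore not shown to be particular to these members. The MGA ratio separated with MGA log2 fold changes of only -0.01 in A549 and -0.0014 in H1299.

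**Figure D4:**
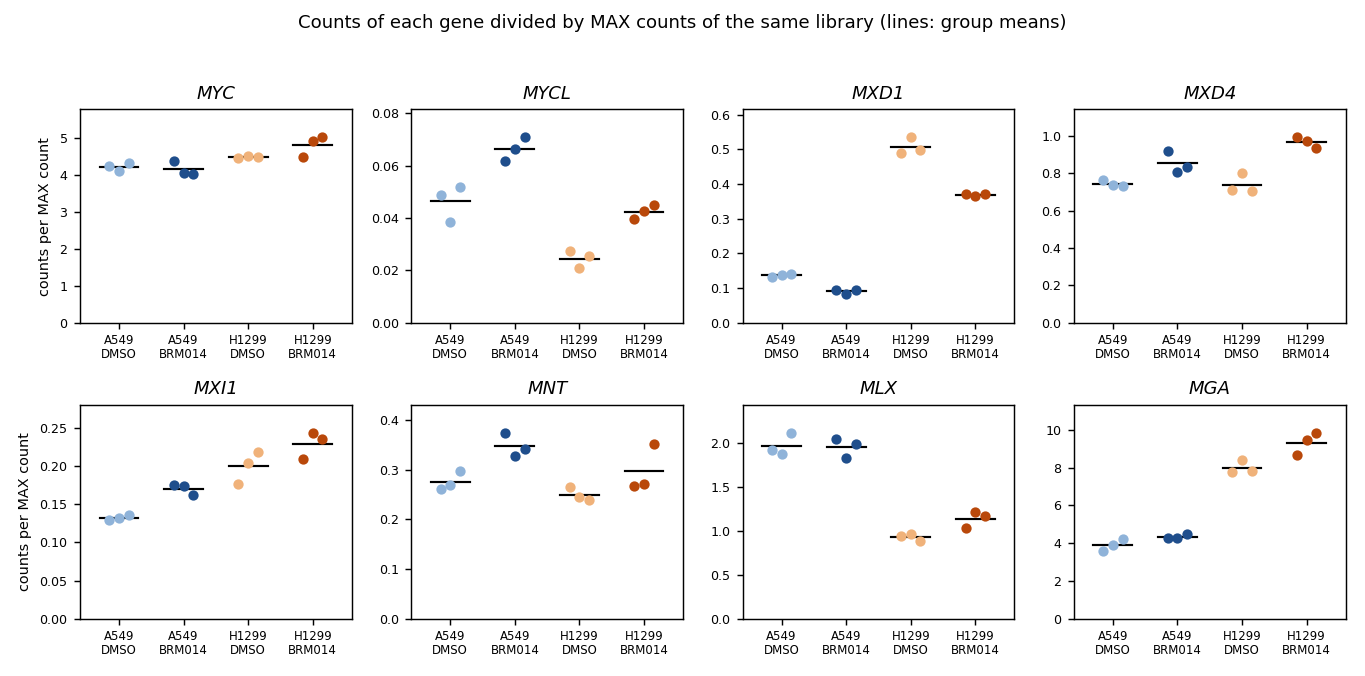
Counts of 8 members divided by the MAX counts of the same library (vertical axis, from 0, with its own scale for each gene), by line and treatment; points are libraries and lines are group means. The MXD1 ratio was lower in every BRM014 library than in any DMSO library of the same line, at 0.0832 to 0.0954 in A549 and 0.365 to 0.371 in H1299.

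Set among all genes, the falls of MYC in both lines and of MAX and MLX in A549 were of ordinary size. In A549 44.3% of the genes tested had a larger absolute log2 fold change than MYC, 48.6% than MAX and 46.2% than MLX. In H1299 the share was 41.4% for MYC and 24.5% for MAX, so the fall of MAX there exceeded the change of most genes. After MXD1, the member farthest from 0 was MYCL, whose change did not pass the test: 26.9% of genes in A549 and 7.11% in H1299 had a larger one. The median absolute log2 fold change of the 9 members was 0.18 in A549 and 0.12 in H1299, and that of all genes was 0.16 and 0.10.

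**Figure D5:**
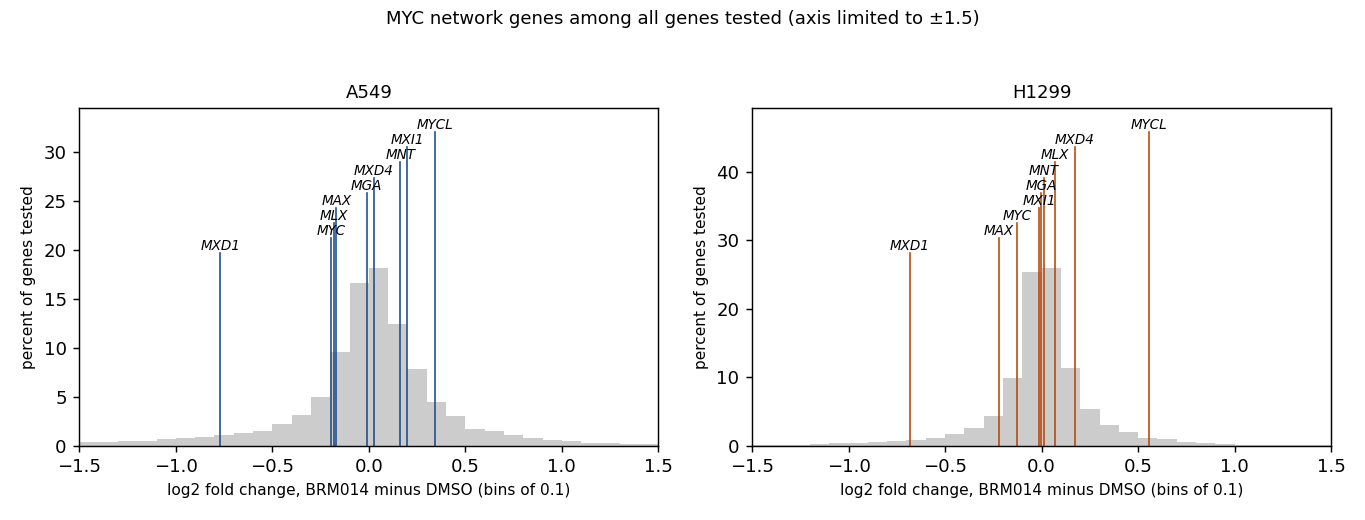
Percent of all genes tested (vertical axis) by log2 fold change of BRM014 against DMSO in bins of 0.1 (horizontal axis), with vertical lines at the members. MXD1 lay in the lower tail of both lines, at -0.77 and -0.68, while MYC and MGA lay within or beside the central peak. MAX lay beside the peak in A549 and farther out in H1299, at -0.22.

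The pattern of MYC over the 12 libraries, as log2 CPM minus the mean of the DMSO libraries of the line, was compared with that of 9764 other genes with a mean of at least 5 CPM in each line. The closest were ENSG00000101363 and ENSG00000107130, which differed from MYC by a root mean square of 0.03 on the log2 scale, where the median gene differed by 0.16. Their log2 fold changes in A549 and H1299 were -0.21 and -0.09 for the former and -0.18 and -0.11 for the latter. The former did not pass the threshold in H1299 (adjusted p = 0.204 in edgeR). These values are a description only, since the genes were chosen for their likeness to MYC in these libraries. Among the members that met the 5 CPM rule, MAX was the nearest, at rank 339 with 0.07, and MXD1 the farthest, at rank 9231 with 0.37. MYCL and MYCN did not meet the rule and were not ranked.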

How the data were processed

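The deposited values are raw gene counts, whole numbers with no normalization, 1 table per line. The tools named by the submitters' processing notes are STAR 2.7.3a, Bowtie 1.2.2, featureCounts, cutadapt 1.14 and DESeq2, with build hg38; their roles, the annotation and the strand setting are not given. Per the labels' protocols, ribosome-depleted stranded total RNA libraries were made from 500 ng of RNA, with spike-ins that were not used here. Of 107 samples, 12 were analysed. Columns were matched to samples by name, except 2 A549 BRM014 columns with a shared header, which entered as replicates of their group. No 2 replicates agreed within sampling noise (chi-square per degree of freedom 2.20 to 11.1).

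Counts were tested in R 4.3.3 with edgeR 4.0.16: filterByExpr (minimum count 10, total 15), TMM and two-sided glmQLFTest with Benjamini-Hochberg adjustment. Each line was fitted alone. Line differences came from a joined fit of 12 libraries over shared identifiers. Standard errors are the log2 fold change over the square root of F, and 95% intervals use the fitted degrees of freedom. CPM come from the joined scaling, so their ratios differ slightly from the fitted folds. Likeness to MYC used log2(CPM + 0.5). The steps were tested on simulated data with planted changes of 1.5-fold and 2-fold, of which 80% to 99% were recovered. Changes as small as the responses of MYC, MAX, MLX and MXD4 were not simulated. Alternatives were DESeq2 size factors, library totals, limma-voom (limma 3.58.1), DESeq2 1.42.0, no filter, at least 5 CPM in 3 libraries, other sample sets, a replicate block and leaving out each library. The members and lists were chosen with earlier results of these data known. All 10 members were named; 12 pathway and marker lists fixed by symbol could not be matched, since the name tables at hand matched 0 identifiers, so line identity was not checked against markers.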

Additional observations from a re-analysis of the deposited data

Results flagged for a closer look

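MLX differed between the lines in its response to BRM014, by 0.27 on the log2 scale (H1299 minus A549), by an interaction term of line and treatment (adjusted p = 0.0053 in edgeR). MLX fell in A549 in 3 of 3 treated libraries, to 79.5 ± 1.46 CPM from 91.5 ± 3.16 CPM (SD, n = 3), while H1299 had 46.1 ± 2.94 CPM against 44.0 ± 1.16 CPM. The difference passed the threshold in each of 19 alternatives and lay between 0.22 and 0.32. The A549 libraries vary more than those of H1299 (common biological coefficient of variation 5.04% against 3.15%), and the part of medium and PCR cycles, which differ between the lines, cannot be told apart from that of the line.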

How the results depend on the processing

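The numbers of members past the threshold stayed within 1.5 times their value in each alternative: 3 to 6 in A549 (4 as reported), 3 to 5 in H1299 (4), 1 for the response difference (1) and 5 to 8 in DMSO (6). Of 599 single-gene values, 556 kept direction and call, 9 lost the call, 7 gained it and 27 changed sign; none of those that changed sign was past the threshold. MXD1 and MYC kept their falls in both lines in each of 14 alternatives a line, with MXD1 between -0.80 and -0.72 in A549 and -0.71 and -0.65 in H1299. With library totals the sign turned for MGA in A549 (0.0382), MXI1 (0.0196) and MGA (0.0312) in H1299, the MGA response difference (-0.0055) and MNT in DMSO (0.11). Limma-voom turned MXI1 (0.0059) and MNT (-0.0034) in H1299. MGA in H1299 turned with no filter (0.0016), the 5 CPM filter (0.0042) and the joined fit (0.0002). Without both unnumbered A549 libraries, chosen after seeing the data, MXD4 turned in A549 (-0.0519); a single BRM014 library is then assumed to vary like the others. Leaving out a library gave ranges of -0.0264 to 0.0581 for MXD4 and -0.0546 to 0.0186 for MGA in A549, -0.0996 to 0.0732 for MXI1, -0.0973 to 0.0834 for MNT and -0.0208 to 0.0201 for MGA in H1299, -0.0552 to 0.0033 for the MAX response difference, and -0.0206 to 0.0474 for MAX and -0.0479 to 0.0397 for MXD4 in DMSO. The causes were not tested. The 5 CPM filter removed MYCL, which had 32 to 120 counts per library.

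With the replicate block, 4 members passed in H1299 and 6 in DMSO, as without it. Same-numbered H1299 libraries deviated with correlations of -0.05, -0.03 and 0.0096, and same-numbered DMSO libraries of the lines with -0.0010, 0.0068 and -0.03. In A549 the correlation was 0.22 for DMSO and BRM014 replicates 3, and DMSO replicate 1 gave 0.37 with BRM014 library a and -0.07 with b. No block could be fitted in A549, because libraries a and b share 1 header.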

Other observations

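The few MYCN counts of A549 were 4 and 5 in the BRM014 libraries whose columns share a header, 0 in the third BRM014 library, and 2, 1 and 1 with DMSO. Over the 6 libraries of a line MYCN had 13 counts in A549 and 1 in H1299. Neither the spread among libraries nor the difference between lines was tested at these counts.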
